A study of Homo sapiens with 12 samples.

Results

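Untreated cells of the Ewing sarcoma lines A673 and TC32 were compared on expression arrays, using 4 of the 12 arrays of a study of the inhibitor THZ531. The 4 arrays were those labelled DMSO, the drug's solvent: 2 of A673 and 2 of TC32, each harvested after 6 hours. A dose of 100 nM stands in the DMSO labels too, and it was taken to have no meaning for the solvent. The other 8 arrays hold the same lines after 6 hours at 100 or 500 nM THZ531, with 2 arrays for each line and dose, and were used to estimate the spread in the fit and to look at the same differences in separate samples. Both lines grew in the same serum-supplemented medium, and an ERCC spike-in mix was added to all RNA. The labels call the 2 arrays of a group biological replicates of cells treated in duplicate. They are cultures of a single established line, so every p-value refers to the spread of these cultures, which may be technical, and not to that of tumours.

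Ewing sarcoma arises in bone or soft tissue, mainly in the young. Its driver is a fusion that joins EWSR1 to an ETS factor gene, usually FLI1. The fusion protein, EWS/FLI, switches on genes with GGAA repeats nearby and lowers many mesenchymal genes, so the cells sit between neural and mesenchymal states. A673 is known to carry an activating BRAF mutation besides its fusion. THZ531 inhibits CDK12 and CDK13, kinases that keep RNA polymerase II elongating.

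Of 49395 probe sets, those naming a single gene with 3-decimal values gave 16913 genes. The middle gene of the A673 DMSO arrays lay at 7.32 and 7.07 on the deposited log2 scale, against 6.54 and 6.47 in TC32, and how the values were scaled between arrays is not given in the sources used here. Each array was therefore centred on its median, which removed a shift of 0.69. The values below, called relative levels, are log2 distances from the array median, and a difference is A673 minus TC32 on that scale. The number of arrays limits the precision. The 2 A673 arrays correlated at 0.990 across genes, the 2 TC32 arrays at 0.997, and arrays of different lines at 0.869 to 0.875. The 10149 genes tested had a mean relative level over the 4 arrays of at least -0.65, the expression minimum used here. A bulk array cannot tell fewer expressing cells from less RNA per cell.

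Of the tested genes, 3470 were higher in A673 (34.2%) and 2214 higher in TC32 (21.8%) at an adjusted p under 0.05 (limma, Benjamini-Hochberg). A difference of at least 2-fold as well was found for 592 genes higher in A673 (5.83%) and 652 higher in TC32 (6.42%). In all 1244 of these, both arrays of one line lay above both of the other. With 2 arrays a line such separation is common, so here and below it adds little to a call. Of 64 ribosomal protein genes tested, 0 were past 2-fold, yet after centring both arrays were higher in TC32 for 52 and in A673 for 5. The share so separated was not counted over all tested genes, so these counts are no result about ribosomal genes. Their direction also follows the scaling, as 46 were called higher in A673 and 0 in TC32 as deposited. In 394 of the 1244 one line lay under the expression minimum, 173 of them higher in A673 and 221 higher in TC32. Such a gene passed the filter only through its higher line, and its fold is given as at least the distance from the minimum. The direction of small differences depends on the scaling. The median over tested genes was 0.12 after centring, 0.81 as deposited, 0.06 after quantile normalization and -0.0025 after centring on the tested genes alone. As deposited, 3413 genes were at least 2-fold higher in A673 (33.6%) and 252 in TC32 (2.48%). The share of the genes past 2-fold that were higher in A673 was thus 47.6% after centring, 93.1% as deposited, 41.4% after quantile normalization and 37.2% after centring on the tested genes. Each gene list below is given with its counts both ways, and the lists are described against these shares without a test of the list.

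**Figure D1:**
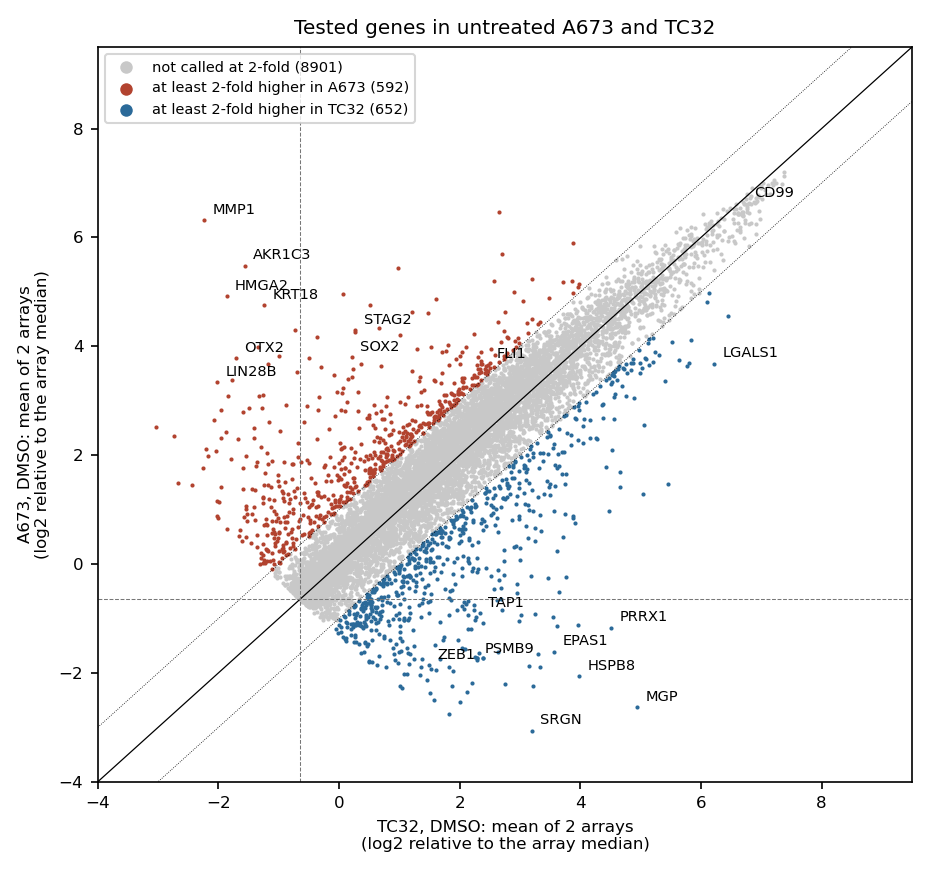
Each point is a tested gene, at its mean relative level (log2) over the 2 TC32 arrays (x axis) and the 2 A673 arrays (y axis); dotted lines mark a 2-fold difference and dashed lines the expression minimum. The genes farthest from the diagonal, such as MMP1 and MGP, lie under the minimum in one line, while CD99 lies close to the diagonal (it changes sides as deposited and after quantile normalization).

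The defining genes of the tumour were present in both lines. All 8 Ewing markers with usable values, of 9 looked for, lay above the minimum in each line, with array means of 4.24 and 4.42 in A673 and 4.42 and 4.40 in TC32. CD99, the surface protein used in diagnosis, had relative levels of 6.57 and 6.67 in A673 and 6.74 and 6.74 in TC32. The groups did not overlap but the difference of -0.12 ± 0.07 (SE, n = 2 a line) was not past the threshold (adjusted p = 0.141). It was 0.57 as deposited and 0.12 after quantile normalization, so its direction is set by the scaling. The other marker lists had array means between -1.54 and 0.03. The fibroblast and neuronal means lay above the minimum on all 4 arrays, and the epithelial means did so in A673. PTPRC, EPCAM and PDGFRA, defining genes of blood, epithelial and fibroblast cells, lay under the minimum on all 4 arrays. Other members of their lists lay above it by line mean. These were CD79A, HBB, CLDN4, MUC1, COL3A1 and PDGFRB in both lines, KRT8, KRT18, COL1A1 and COL1A2 in A673, and DCN and LUM in TC32.

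FLI1, whose 3' part is in the fusion transcript, was higher in A673. Its relative levels were 3.53 and 3.80 in A673 and 2.46 and 2.49 in TC32. The difference was 1.19 ± 0.14, a fold of 2.28 (adjusted p = 1.38e-07), and the A673 arrays lay above both TC32 arrays. EWSR1, the other fusion gene, was higher in A673 by 0.50 ± 0.11 (adjusted p = 0.000532). NKX2-2, a homeobox repressor activated by the fusion, went the other way: 3.54 and 3.56 in A673 against 4.43 and 4.30 in TC32. That difference of -0.82 ± 0.11 was past the threshold after centring (adjusted p = 1.17e-06) and was -0.13 as deposited (adjusted p = 0.538).

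Genes known as activated by EWS/FLI fell on both sides. Of 41 listed, 34 were tested, with 5 at least 2-fold higher in A673 and 7 in TC32, and a median of 0.13 (12 and 4 as deposited). PPP1R1A, an inhibitor of protein phosphatase 1, was at 2.62 and 2.60 in A673 and at -0.57 and -0.61 in TC32, a 9.14-fold difference. PADI2, a peptidylarginine deiminase, was at 0.07 and 0.03 in A673 and at 2.78 and 2.68 in TC32, a 6.42-fold difference the other way. KIT, a receptor kinase, and LBH were also higher in TC32, by 4.41-fold and 4.39-fold. Of 34 genes known as repressed by the fusion, 27 were tested, with 6 at least 2-fold higher in A673 and 4 in TC32 (12 and 3 as deposited). The A673 count was 2 without A673 replicate 2 and reached 7 without A673 replicate 1 or TC32 replicate 1. COL1A2 and TGFBI, matrix genes, lay on the A673 side, and FOXO1 and CD44 on the TC32 side. The fusion genes and diagnostic markers themselves, 23 of 26 tested, split 5 to 5 (9 and 2 as deposited).

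The lines differed strongly in several developmental transcription factors listed here for Ewing cells. SOX2, a stem cell factor, had relative levels of 3.67 and 3.93 in A673 and 0.15 and 0.29 in TC32, a fold of 11.97 (difference 3.58 ± 0.13, adjusted p = 2.34e-16). OTX2, a forebrain homeobox factor, was at 3.68 and 3.90 in A673 and under the minimum in TC32, at -1.52 and -1.90, a difference of at least 21.7-fold. PAX7, a neural crest and muscle stem cell factor often used to recognise Ewing sarcoma, was high in TC32 at 3.93 and 3.81 and lower in A673 at 0.88 and 0.90, a fold of 7.90 (adjusted p = 7.97e-16). ZEB1, a driver of mesenchymal state, was at 1.52 and 1.47 in TC32 and at -1.96 and -1.75 in A673, at least 4.44-fold higher in TC32. SNAI2, of the same class of repressors, was 5.05-fold higher in TC32. Each of these 5 factors separated the lines without overlap. In the list of such factors, 25 of 31 were tested, 6 at least 2-fold higher in A673 and 7 in TC32 (12 and 4 as deposited).

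**Figure D2:**
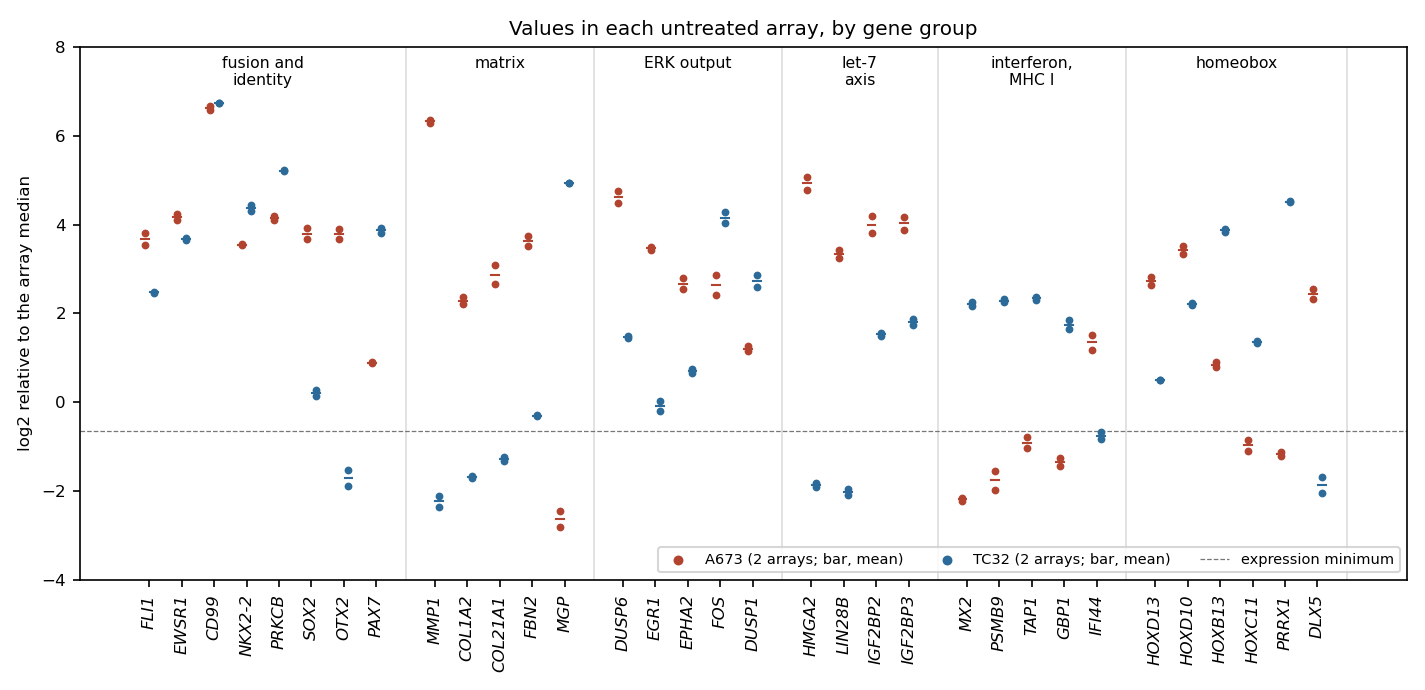
Relative level (log2, y axis) of genes from 6 groups on each of the 4 untreated arrays; points are arrays, bars are the means of 2 and the dashed line is the expression minimum. Only CD99 of the genes drawn lies at nearly the same level in both lines, and its order reverses as deposited and after quantile normalization.

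HOX genes, which encode position along the body axis, were tested in the HOXB, HOXC and HOXD clusters; of the HOXA genes only HOXA2 had usable values, and it did not pass the expression filter. Of 39 listed, 27 had usable values and 22 were tested, with 4 at least 2-fold higher in A673 and 7 in TC32. The median was -0.62 after centring and 0.07 as deposited (5 and 2 at least 2-fold). The 4 higher in A673 were HOXD13, HOXD9, HOXD8 and HOXD10, all of the HOXD cluster. HOXD13, a posterior gene, was at 2.65 and 2.82 in A673 and 0.49 and 0.51 in TC32, a fold of 4.70. HOXD10 was at 3.33 and 3.51 against 2.22 and 2.18, a fold of 2.32. The 7 higher in TC32 were all of the HOXB and HOXC clusters. HOXB13, another posterior gene, was at 0.79 and 0.90 in A673 and 3.91 and 3.84 in TC32, 8.18-fold higher in TC32. HOXC11 followed at 1.38 and 1.32 in TC32 and under the minimum in A673, at least 4.01-fold higher. HOXB5 and HOXC9 were higher in TC32 by at least 2.06-fold and by 2.83-fold.

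Other homeobox genes leaned to TC32 in their large differences. Of 103 listed, 52 were tested, with 7 at least 2-fold higher in A673 and 15 in TC32, while their median was 0.02 (18 and 10, median 0.71, as deposited). PRRX1, a limb mesenchyme factor, was at 4.53 and 4.50 in TC32 and at -1.12 and -1.22 in A673, at least 35.9-fold higher in TC32. PROX1, which specifies lymphatic endothelium, was at least 14.01-fold higher in TC32, POU3F2, a neural POU factor, at least 14.9-fold and MSX2 at least 10.2-fold. On the A673 side, DLX5, a skeletal factor, was at 2.32 and 2.54 in A673 and at -2.05 and -1.68 in TC32, at least 8.48-fold higher. IRX3 and POU4F1, a sensory neuron factor, were higher in A673 by 9.03-fold and 7.02-fold.

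Among SOX, TBX, FOX and GATA genes, 31 of 75 were tested, 3 at least 2-fold higher in A673 and 7 in TC32 (5 and 5 as deposited). The A673 count was 2 without either A673 array and 5 without either TC32 array. TBX3 and TBX5, T-box factors of limb and heart, were at least 15.8-fold and 8.18-fold higher in TC32. Their relative levels in TC32 were 3.38 and 3.28 for TBX3 and 2.39 and 2.37 for TBX5, and all A673 values were below -1.47. FOXF2, a mesenchymal forkhead factor, was at least 8.18-fold higher in TC32. SOX9, a cartilage and neural crest factor, was the reverse, at 2.22 and 2.41 in A673 and at -1.69 and -2.24 in TC32, at least 7.82-fold higher in A673. Neural crest and Schwann cell genes, 12 of 25 tested, had 1 member at least 2-fold higher in A673, SOX9, and 6 in TC32, among them TWIST1, SNAI2, MSX2 and KIT. Their median was -0.51 after centring and 0.18 as deposited (3 and 3 at least 2-fold).

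Transcripts that report RAS, RAF and ERK signalling were more often higher in A673 than in TC32. Of 44 listed, 36 were tested, and 17 were at least 2-fold higher in A673 against 4 in TC32, with a median of 0.92 (22 and 1, median 1.61, as deposited). The counts were 13 and 5 with arrays centred on the tested genes, and 14 and 5 after quantile normalization. DUSP6, a phosphatase that acts on ERK and is induced by it, was at 4.49 and 4.75 in A673 and 1.45 and 1.49 in TC32. Its fold was 8.89 (difference 3.15 ± 0.11, adjusted p = 1.31e-16) and the lines did not overlap. EGR1, an immediate early factor, was at 3.44 and 3.49 against 0.04 and -0.21, a fold of 11.7. DUSP5, a nuclear ERK phosphatase, was at least 4.12-fold higher in A673. ETV4 and ETV5, ETS factors downstream of ERK, were higher in A673 by at least 2.67-fold and by 2.41-fold. EPHA2, an ephrin receptor, was 3.90-fold higher. DUSP4 and the feedback inhibitor SPRY4, named after their values were seen, were at least 3.08-fold and 1.82-fold higher.

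The same list held immediate early genes that went the other way. FOS was at 2.42 and 2.88 in A673 and 4.03 and 4.27 in TC32, 2.84-fold higher in TC32. DUSP1, a phosphatase of the stress kinases, was 2.87-fold and KLF2 3.80-fold higher in TC32. JUN was higher in TC32 by 2.03-fold after centring (adjusted p = 2.15e-06) and by 0.33 on the log2 scale as deposited (adjusted p = 0.111). Among the pathway's own genes and regulators, 19 of 37 tested, 1 was at least 2-fold higher in A673, the RAS-related GTPase RRAS2 (at least 5.96-fold), and 1 in TC32, RASAL2 (at least 1.89-fold, and not past the threshold as deposited). As deposited the counts were 8 and 0. The TC32 count was 3 without A673 replicate 2 and 0 without TC32 replicate 1, which left 2 in A673.

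Genes of the extracellular matrix were likewise mostly higher in A673. Of 88 listed, 49 were tested, 20 at least 2-fold higher in A673 and 2 in TC32, with a median of 0.78 (30 and 1, median 1.47, as deposited). The TC32 count was 4 without A673 replicate 2 and 3 without TC32 replicate 2. MMP1, the collagenase that cleaves fibrillar collagen, had the largest difference measured: 6.30 and 6.35 in A673 against -2.36 and -2.11 in TC32, at least 126-fold (difference 8.56 ± 0.13, adjusted p = 3.17e-23). COL21A1 and COL1A2, collagen chains, were at least 11.5-fold and 7.69-fold higher in A673, and FBN2, a microfibril protein, 15.2-fold. The largest difference of all on the TC32 side belonged to the same list. MGP, an inhibitor of calcification, was at 4.94 and 4.95 in TC32 and -2.45 and -2.82 in A673, at least 48.3-fold higher in TC32. LAMB2, a laminin chain, was the other, at least 1.93-fold. FMOD, a collagen-binding proteoglycan outside the list, was at least 9.76-fold higher in TC32.

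Fibroblast markers lay on both sides. Of 7, 4 lay above the minimum in each line: COL1A1, COL1A2, COL3A1 and PDGFRB in A673, and COL3A1, PDGFRB, DCN and LUM in TC32. DCN and LUM, proteoglycans of connective tissue, were lower in A673, at -2.27 and -1.96 and at -3.61 and -2.77, than in TC32, at -0.43 and -0.65 and at 0.25 and 0.46. The array means of all 7 were -0.19 and 0.03 in A673 and -0.39 and -0.47 in TC32. PDGFRA was under the minimum throughout, and the part of these markers in the matrix differences was not tested. In the longer fibroblast list, 6 of 11 were tested and 4 were at least 2-fold higher in A673, or 2 without A673 replicate 2 (5 as deposited).

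The basement membrane collagens COL4A1 and COL4A2 share one promoter and are transcribed away from each other. Both were higher in A673. COL4A1 was at 3.08 and 3.21 in A673 and 0.07 and 0.03 in TC32, a difference of 3.10 ± 0.11. COL4A2 was at 3.41 and 3.76 against 0.29 and 0.16, a difference of 3.36 ± 0.13. The lines did not overlap for either gene. Both were named after their values were seen, as members of a pair. The sequence between their start sites is shown because it serves both genes. It spans chr13:110307158-110307283 on the plus strand of GRCh38.p14 (RefSeq), and capitals mark a CCAAT box and the GC box GGGCGG.

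COL4A1/COL4A2: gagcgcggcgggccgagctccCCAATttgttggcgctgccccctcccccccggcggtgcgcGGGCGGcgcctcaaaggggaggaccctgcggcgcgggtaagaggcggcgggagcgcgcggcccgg

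On either strand, CCAAT was found in 32.0% and GGGCGG in 42.6% of the 35116 promoters of 250 bases before a start site in the RefSeq table. A match is a description of letters and not a site in use.

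Over the genome, 540 pairs of tested genes started within 1000 bases of each other on opposite strands. In 6 pairs both genes were at least 2-fold apart, and all 6 pairs were higher in the same line. These were COL4A1 with COL4A2, APIP with PDHX, KNOP1 with IQCK and ANKMY2 with BZW2 on the A673 side, and PRKAB2 with CHD1L and TAP1 with PSMB9 on the TC32 side. Where a single gene of the pair passed 2-fold, in 49 pairs, its partner had the same sign in 40. The share of same-sign partners among other neighbouring genes was not counted, so these counts only describe the pairs. APIP and PDHX lie among 41 neighbouring genes on chromosome 11, LGR4 to DGKZ, of which 32 were called higher in A673 and 4 in TC32. The 41 genes around PRKAB2 and those around CHD1L on chromosome 1 had a median of -0.27. The differences of paired genes correlated at 0.473 over the 540 pairs, which share arrays and chromosomal position.

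MHC class I and interferon genes were mostly higher in TC32 after centring. They load peptides onto the cell surface for T cells or answer interferon. Of 63 listed, 41 were tested, and 1 was at least 2-fold higher in A673 against 12 in TC32, with a median of -0.42. As deposited the counts were 3 and 5 and the median was 0.27, so the sign of the list's median follows the scaling, whereas the largest members kept theirs. PSMB9, an immunoproteasome subunit, was at -1.54 and -1.97 in A673 and 2.32 and 2.25 in TC32, at least 7.64-fold higher in TC32 (difference -4.04 ± 0.14, adjusted p = 7.86e-17; -3.35 as deposited). TAP1, the transporter that carries peptides to MHC class I, was at -1.03 and -0.79 in A673 and 2.36 and 2.31 in TC32, at least 7.94-fold higher (difference -3.25 ± 0.12; -2.55 as deposited). For both genes the A673 arrays lay under the expression minimum and the TC32 arrays well above it. MX2, an antiviral GTPase, was at least 7.26-fold and GBP1, a guanylate-binding protein, at least 5.26-fold higher in TC32.

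The surface chains differed less. HLA-B was at 1.35 and 1.23 in A673 and 2.89 and 2.79 in TC32, and HLA-C at 1.05 and 1.05 against 2.57 and 2.53, with folds of 2.92 and 2.82. These genes are near-identical relatives whose probes may share signal. B2M, the common light chain, was within 1.21-fold, at -0.27 ± 0.07 after centring and 0.42 as deposited. PSMB8, the neighbouring immunoproteasome subunit, was 6.11-fold higher in TC32. HLA-B, HLA-C, B2M and PSMB8 were named after their values were seen. IFI44, an interferon-induced gene, was the only member at least 2-fold higher in A673. It was at 1.17 and 1.52 in A673 and -0.82 and -0.68 in TC32, at least 3.99-fold higher in A673. With no fold limit, 3 members were higher in A673 and 26 in TC32 (15 and 11 as deposited). Of 5 usable blood cell markers, 2 (CD79A and HBB) lay above the minimum in each line, with array means of -1.54 and -1.37 in A673 and -1.30 and -1.27 in TC32, and PTPRC and LYZ were under the minimum on all 4 arrays.

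TAP1 and PSMB9 start 488 bases apart. The 250 bases before the TAP1 start are shown because this promoter holds letters of an interferon response element. They lie at chr6:32853705-32853954 on the minus strand of GRCh38.p14 (RefSeq), and capitals mark 2 overlapping matches to GAAA, any 2 bases and GAAA again, read on the opposite strand.

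TAP1: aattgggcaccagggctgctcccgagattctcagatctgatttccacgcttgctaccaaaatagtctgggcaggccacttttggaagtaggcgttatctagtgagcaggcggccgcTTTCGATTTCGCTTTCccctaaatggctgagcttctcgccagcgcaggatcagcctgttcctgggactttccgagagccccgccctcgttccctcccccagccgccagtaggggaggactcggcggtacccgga

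On either strand the motif was in 3.02% of the 35116 promoters. Of the 13 interferon members at least 2-fold apart, 12 had a listed promoter, and 5 of the 12 held it: TAP1, IFITM3, PARP14, GBP1 and the A673-high IFI44. These are counted per gene, over any of its promoters, and the 3.02% per promoter. The list's other members were not looked up, so whether the motif is commoner in the genes that differ was not tested. No match means only that these letters are not in the window.

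The let-7 axis separated the lines widely. LIN28B blocks maturation of the let-7 microRNAs, and HMGA2 and the IGF2BP genes are among let-7 targets. HMGA2, a chromatin protein of embryonic cells, was at 4.78 and 5.07 in A673 and -1.82 and -1.90 in TC32, at least 47.8-fold higher in A673 (difference 6.79 ± 0.14, adjusted p = 1.15e-20). LIN28B was at 3.25 and 3.43 in A673 and -1.95 and -2.09 in TC32, at least 15.9-fold higher. The TC32 arrays lay under the expression minimum for both genes. IGF2BP2 and IGF2BP3, RNA-binding proteins, were 5.53-fold and 4.66-fold higher in A673. Of 21 listed genes 12 were tested, and 5 were at least 2-fold higher in A673 and 0 in TC32 (9 and 0 as deposited), with 1 in TC32 when either A673 array was left out. At an adjusted p under 0.05 with no fold limit, 2 were higher in TC32. IGF2BP1 was one of them at -0.65, named after its value was seen; it was 0.05 as deposited. The microRNAs themselves were not measured.

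Imprinted genes, expressed from one parental copy, were more often higher in A673. Of 37 listed, 16 were tested, 6 at least 2-fold higher in A673 and 0 in TC32, with 2 higher in TC32 with no fold limit (10 and 0 as deposited). Without A673 replicate 1 the counts past 2-fold were 4 and 1, and without A673 replicate 2 they were 4 and 2. MEST was at 4.28 and 4.41 in A673 and 0.69 and 0.63 in TC32, a fold of 12.9. TFPI2, a protease inhibitor, was at least 5.33-fold and PHLDA2, a placental growth regulator, 3.68-fold higher in A673.

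Metallothioneins and detoxification genes were higher in A673. Of 41 listed, 23 were tested, with 10 at least 2-fold higher in A673 and 2 in TC32 and a median of 0.95 (15 and 1 as deposited). The TC32 count ranged from 1 without TC32 replicate 1 to 3 without either A673 array. AKR1C3, a reductase of steroids and prostaglandins, was at 5.50 and 5.47 in A673 and -1.48 and -1.66 in TC32, at least 70.4-fold higher (difference 7.05 ± 0.12, adjusted p = 3.80e-22). MT2A, which binds zinc and copper, was at 5.87 and 5.93 in A673 and 3.88 and 3.87 in TC32, a fold of 4.06. MT1X and MT1G were higher by 4.42-fold and 5.63-fold. AKR1B10, a related reductase, went the other way and was 10.1-fold higher in TC32. Members of both families are near-identical in sequence, so the values of single members are uncertain.

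The promoters of MT2A and MT1X are shown because both genes were higher in A673 and both promoters hold letters of metal response elements. They are the 250 bases before each start on the plus strand of GRCh38.p14 (RefSeq), at chr16:56608334-56608583 for MT2A and chr16:56682220-56682469 for MT1X. Capitals mark TGCGCNC or TGCACNC on either strand.

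MT2A: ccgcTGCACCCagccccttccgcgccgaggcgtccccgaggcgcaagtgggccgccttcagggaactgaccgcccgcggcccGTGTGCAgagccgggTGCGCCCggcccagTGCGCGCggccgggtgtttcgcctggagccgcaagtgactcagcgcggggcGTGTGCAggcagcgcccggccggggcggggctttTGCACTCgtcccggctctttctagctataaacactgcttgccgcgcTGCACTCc

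MT1X: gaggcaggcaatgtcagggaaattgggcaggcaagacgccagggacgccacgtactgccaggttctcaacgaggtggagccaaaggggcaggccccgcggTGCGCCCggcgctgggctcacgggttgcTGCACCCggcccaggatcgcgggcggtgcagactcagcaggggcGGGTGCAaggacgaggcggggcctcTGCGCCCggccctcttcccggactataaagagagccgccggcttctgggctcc

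MT2A held 7 matches and MT1X 4. At least 1 match was found in 24.8% of the 35116 promoters and at least 4 in 0.37%.

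Neural genes went both ways. Of 62 listed, 31 were tested, 6 at least 2-fold higher in A673 and 7 in TC32 (16 and 7 as deposited). The A673 count ranged from 2 without A673 replicate 2 to 9 without A673 replicate 1. NPY, a neuropeptide of sympathetic nerves, was at 2.53 and 2.75 in A673 and -2.07 and -2.10 in TC32, at least 9.81-fold higher in A673. Its receptors NPY1R and NPY5R were 2.14-fold and 2.03-fold higher there. SCG2, a granin of secretory vesicles, was at 0.68 and 1.28 in A673 and 4.63 and 4.33 in TC32, 11.3-fold higher in TC32. MAPT, the tau gene, was 4.65-fold and GFRA2, a receptor for neurturin, 5.30-fold higher in TC32.

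Adhesion molecules lay on both sides. Of 67 listed, 32 were tested, 9 at least 2-fold higher in A673 and 5 in TC32 (13 and 3 as deposited). CDH2, N-cadherin, was at 3.61 and 3.76 in A673 and -1.06 and -1.29 in TC32, at least 20.2-fold higher. NRCAM, a neuronal adhesion molecule, was at least 8.995-fold and PCDHB5, a protocadherin of a closely related cluster, at least 13.3-fold higher in A673. CD9, a tetraspanin, was at 3.33 and 3.29 in TC32 and -1.74 and -1.56 in A673, at least 15.5-fold higher in TC32. ICAM2 and CADM1, immunoglobulin adhesion molecules, were higher in TC32 by 7.71-fold and at least 2.70-fold. Genes of the actin cytoskeleton and mesenchymal state, 39 of 47 tested, split 7 to 6 (14 and 3 as deposited). The TC32 count was 4 without A673 replicate 1. CNN3, a calponin, was 9.56-fold and TPM1, tropomyosin, 4.45-fold higher in A673, whereas S100A10, S100A6 and LGALS1, small calcium- or sugar-binding proteins, were 9.48-fold, 5.64-fold and 5.78-fold higher in TC32.

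Keratin 18 was expressed in A673. KRT18 was at 4.73 and 4.77 in A673 and -1.23 and -1.25 in TC32, at least 42.4-fold higher. Its usual partner KRT8 reached -0.57 and -0.28 in A673, close to the minimum, and EPCAM and CDH1 were under the minimum on all 4 arrays. Of the 10 epithelial markers, 4 lay above the minimum in A673 and 2 in TC32, with array means of -0.57 and -0.60 against -1.05 and -1.07.

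Secreted growth factors favoured A673. Of 65 listed, 22 were tested, with 7 at least 2-fold higher in A673 and 2 in TC32 (12 and 2 as deposited). The TC32 count was 1 without either TC32 array. PGF, a placental member of the VEGF family, was at 4.11 and 4.22 in A673 and -0.34 and -0.38 in TC32, a fold of 22.98. VEGFA was 3.65-fold, NRG1, a ligand of the ERBB receptors, 3.59-fold and HBEGF, an EGF receptor ligand, at least 3.88-fold higher in A673. The chemokines CXCL14 and CCL2 were at least 7.82-fold and 3.995-fold higher in TC32. Of 40 receptor kinases, 21 were tested, 3 at least 2-fold higher in A673 (ROR2, PDGFRB and ROR1) and 2 in TC32 (KIT and IGF1R; 6 and 1 as deposited). IGF1R, the receptor Ewing cells are known to depend on, was at -0.05 and 0.73 in A673 and 1.76 and 1.79 in TC32, 2.71-fold higher in TC32.

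Genes of the Wnt, TGF-beta and BMP, Notch and Hedgehog pathways lay on both sides. Of 67 Wnt genes, 36 were tested, 5 at least 2-fold higher in A673 and 6 in TC32 (11 and 5 as deposited). SFRP2 and FRZB, secreted Wnt antagonists, were at least 4.55-fold and 8.92-fold higher in TC32, FRZB at 3.89 and 3.92 there against 0.73 and 0.77 in A673. RSPO3, which amplifies Wnt signals, was at least 3.44-fold higher in TC32, and the receptors FZD8 and ROR2 were higher in A673 by 7.25-fold and at least 5.47-fold. Of 67 TGF-beta and BMP genes, 42 were tested, 4 at least 2-fold higher in A673 and 5 in TC32 (11 and 3 as deposited). CHRDL1 and GREM1, BMP antagonists, were at least 14.6-fold and 6.45-fold higher in TC32, and NOG, another BMP antagonist, at least 2.45-fold higher in A673. Of 39 Notch and Hedgehog genes, 26 were tested and split 4 to 2 (10 and 2 as deposited). HEY1, a Notch target, and HHIP, an inhibitor of Hedgehog ligands, were at least 8.22-fold and 3.51-fold higher in TC32, while the ligand JAG1 was 2.77-fold higher in A673. The TC32 counts moved with the array left out: 4 Wnt genes without either TC32 array, 7 TGF-beta and BMP genes without A673 replicate 2 and 1 Notch or Hedgehog gene without either TC32 array. Of 38 Hippo pathway genes, 29 were tested, 5 at least 2-fold higher in A673, or 3 without A673 replicate 2, and 2 in TC32 (16 and 1 as deposited). WWTR1, the coactivator TAZ, was 2.70-fold higher in A673.

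**Figure D3:**
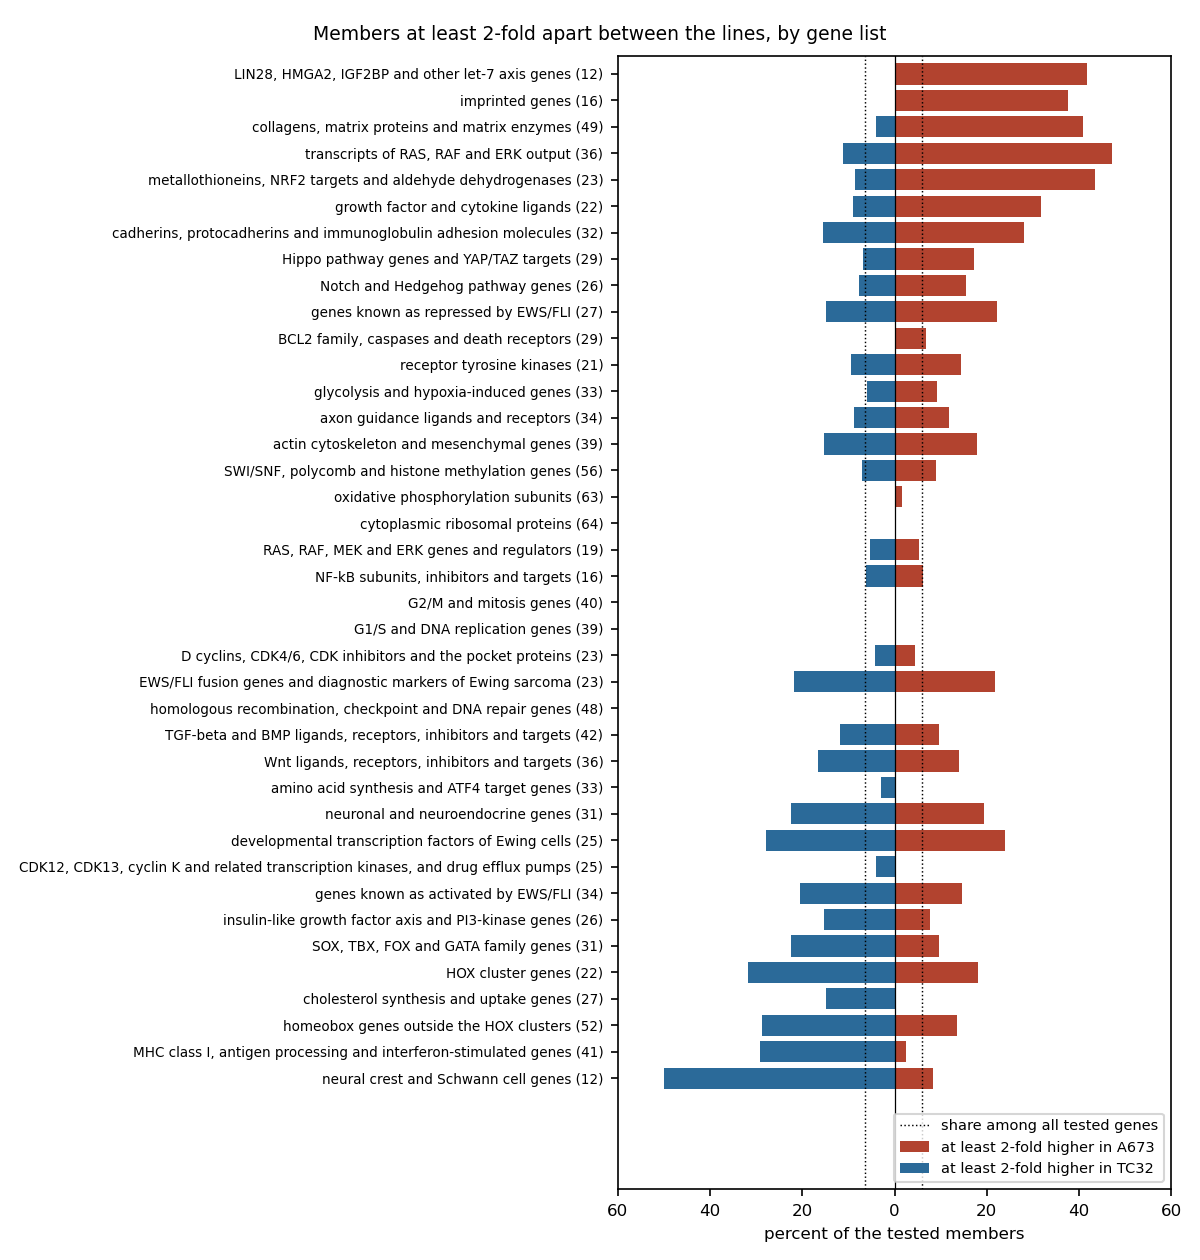
Share of the tested members (number in brackets) of each reported list of 10 or more tested genes at least 2-fold higher in A673 (right) or TC32 (left), in percent; dotted lines mark 5.83% and 6.42%, the shares of all tested genes. ERK output, matrix and let-7 axis genes lie mainly to the right and interferon genes to the left; as deposited the negative medians of the interferon, HOX, neural crest, cholesterol, ribosomal protein, SOX family and fusion marker lists turn positive, and small positive medians turn negative when arrays are centred on the tested genes.

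Housekeeping and proliferation genes differed little in size after centring, and leaned to A673 as deposited. Of 64 tested ribosomal protein genes (79 listed), 0 were 2-fold apart; 44 were higher in TC32 and 1 in A673 by limma after centring, with a median of -0.25. As deposited 46 were higher in A673 and 0 in TC32, with a median of 0.44, so the direction is set by the scaling. Of 39 tested genes of the G1/S transition and DNA replication (44 listed), 23 were higher in A673 and 3 in TC32, 0 of them by 2-fold, with a median of 0.40 (22 and 0 past 2-fold, median 1.09, as deposited). Without A673 replicate 1, 2 of them passed 2-fold in A673. Mitosis genes (40 of 46 tested) had a median of 0.02, with 11 higher in A673 and 4 in TC32, and DNA repair genes (48 of 63) a median of 0.04, with 12 and 10; 0 in either list were 2-fold apart after centring. As deposited 11 mitosis genes and 12 DNA repair genes were at least 2-fold higher in A673 and 0 in TC32, with medians of 0.71 and 0.73. With arrays centred on the tested genes, 3 mitosis genes passed 2-fold in TC32. Of 63 tested oxidative phosphorylation genes (74 listed), 1 was at least 2-fold higher in A673, NDUFS3, and 0 in TC32 (12 and 0 as deposited). Of 27 tested cholesterol genes (34 listed), 17 were higher in TC32 and 4 in A673, with 4 and 0 past 2-fold: PMVK, TM7SF2, HMGCS1 and FDPS, enzymes of the pathway. Without A673 replicate 2, 7 passed 2-fold in TC32. Their median was -0.40 after centring and 0.29 as deposited, and then 4 were 2-fold higher in A673 and 0 in TC32.

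EPAS1, the hypoxia-inducible factor HIF-2 alpha, was at 3.60 and 3.54 in TC32 and -1.52 and -1.70 in A673, at least 18.7-fold higher in TC32. The hypoxia and glycolysis list around it, 33 of 42 tested, split 3 to 2 (15 and 1 as deposited), with VEGFA, SLC2A1, the main glucose transporter, and PFKM, phosphofructokinase, on the A673 side. NDRG1, a hypoxia-induced gene, was 2.66-fold higher in TC32.

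The targets of THZ531 were not called different after centring, and were called higher in A673 as deposited. CDK12 was at 1.17 and 1.23 in A673 and 1.32 and 1.24 in TC32. The difference was -0.09 ± 0.12 (adjusted p = 0.57) after centring and 0.61 (adjusted p = 0.00575) as deposited. CDK13 differed by -0.20 ± 0.17 (adjusted p = 0.349; 0.50 with adjusted p = 0.0239 as deposited) and CCNK, their cyclin, by 0.25 ± 0.11 (adjusted p = 0.062). SLFN11, a restriction factor linked to sensitivity to DNA damage, differed by -0.27 ± 0.13 (adjusted p = 0.0709; 0.42 as deposited). ABCB1, an efflux pump, differed by 0.26 ± 0.13 (adjusted p = 0.0859). Not passing the threshold does not show equal levels. Of 25 tested genes of these kinases and pumps (30 listed), 12 were higher in A673 and 3 in TC32 with 0 and 1 past 2-fold (11 and 0 as deposited), the exception being the transporter ABCC5 at 2.15-fold. Without TC32 replicate 1 none passed 2-fold in TC32.

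Some genes of cell cycle control and cell death also differed. MDM2, a ubiquitin ligase, was higher in A673 by 0.50 ± 0.15 (adjusted p = 0.00571). It did not pass after quantile normalization, without A673 replicate 2 or without TC32 replicate 1. CDKN2A, which encodes p16, differed by -0.32 ± 0.13 (adjusted p = 0.0369), and by 0.37 as deposited. Among BCL2 family, caspase and death receptor genes, 29 of 39 tested, 2 were at least 2-fold higher in A673, PMAIP1, the BH3-only protein NOXA (3.17-fold), and BID (5.05-fold), and 0 in TC32, with 1 higher in TC32 with no fold limit (15 and 0 as deposited).

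STAG2, an X-linked cohesin subunit recurrently inactivated in Ewing sarcoma, was sharply lower in TC32. It was at 4.20 and 4.40 in A673 and 0.34 and 0.19 in TC32, a fold of 16.3 (difference 4.03 ± 0.12, adjusted p = 4.84e-18). The lines were far apart, and TC32 still lay above the expression minimum. The other cohesin genes, named after their values were seen, differed less. STAG1, its paralog, was 1.25-fold, SMC1A 1.08-fold and SMC3 1.64-fold higher in A673, and RAD21 was 1.96-fold higher in TC32. In the chromatin list that holds STAG2, 56 of 64 were tested, 5 at least 2-fold higher in A673 and 4 in TC32 (23 and 1 as deposited). The TC32 count was 6 without A673 replicate 2. TET1 and TET3, enzymes of DNA demethylation, were 3.05-fold and 2.34-fold higher in A673, and KDM5B, a histone demethylase, 2.62-fold higher in TC32.

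Several of the largest differences belonged to none of these groups. On the A673 side they included PLA2G4A, the phospholipase that releases arachidonic acid (at least 8.01-fold), GNG11, a G protein subunit (at least 16.4-fold), PKP1, a desmosome protein (at least 24.8-fold), BEX1 (at least 31.1-fold), NELL2, a secreted neural protein (29.7-fold), and TSPAN13, a tetraspanin (22.1-fold). On the TC32 side they included SRGN, the proteoglycan of secretory granules, at 3.23 and 3.17 in TC32 and -3.31 and -2.81 in A673 (at least 14.5-fold), and HSPB8, a small heat shock protein (at least 24.9-fold). CEACAM6, an adhesion glycoprotein, was at least 24.5-fold, KIF21A, a kinesin, at least 19.3-fold and KMO, an enzyme of tryptophan breakdown, at least 18.3-fold higher in TC32. Of the 20 largest differences in each direction, the lower line was under the minimum in 17 of those higher in A673 and 19 of those higher in TC32.

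Chromosome 8 stood apart in the gene differences. Of its 366 tested genes, 209 were higher in TC32 (57.1%) and 78 by at least 2-fold (21.3%), and the median was -0.42 against 0.12 for all tested genes. A further 55 were higher in A673, 18 of them by at least 2-fold. As deposited the chromosome 8 median was 0.27 against 0.81. Other chromosomes had medians from -0.08 on chromosome 13 to 0.30 on chromosomes 20 and 21. Leaving out 1 array at a time kept the chromosome 8 median between -0.55 and -0.34. Along gene order, a stretch of 41 neighbouring genes from TMEM70 to PLEKHF2 had a median of -1.13 with 40 of 41 below 0, and one from MTDH to TAF2 a median of -0.93. On chromosome 1 the genes from RAB4A to CHML had a median of -0.83 and those from METTL18 to IVNS1ABP of -0.62 (0.07 as deposited for the latter). Stretches higher in A673 were LGR4 to DGKZ on chromosome 11 (0.80), UCK1 to PMPCA on chromosome 9 (0.72), PTGFR to CNN3 on chromosome 1 (0.60) and CNOT2 to CRADD on chromosome 12 (0.56). DNA copy number was not measured. Of the genes named above, RAD21, HEY1, SNAI2, GFRA2 and NDRG1 lie on chromosome 8 and were higher in TC32. NRG1 and DUSP4 lie there too and were higher in A673. On chromosome 1 the median over 41 neighbouring genes was below 0 wherever centred from NOTCH2 to ZBTB18, although the chromosome median was -0.01. Named genes in that part and higher in TC32 include PRRX1, PROX1, KMO, FMOD, S100A10, S100A6, KDM5B, RASAL2, PMVK and FDPS. PLA2G4A and PKP1 lie in it too and were higher in A673. The part of position in these differences was not tested.

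**Figure D4:**
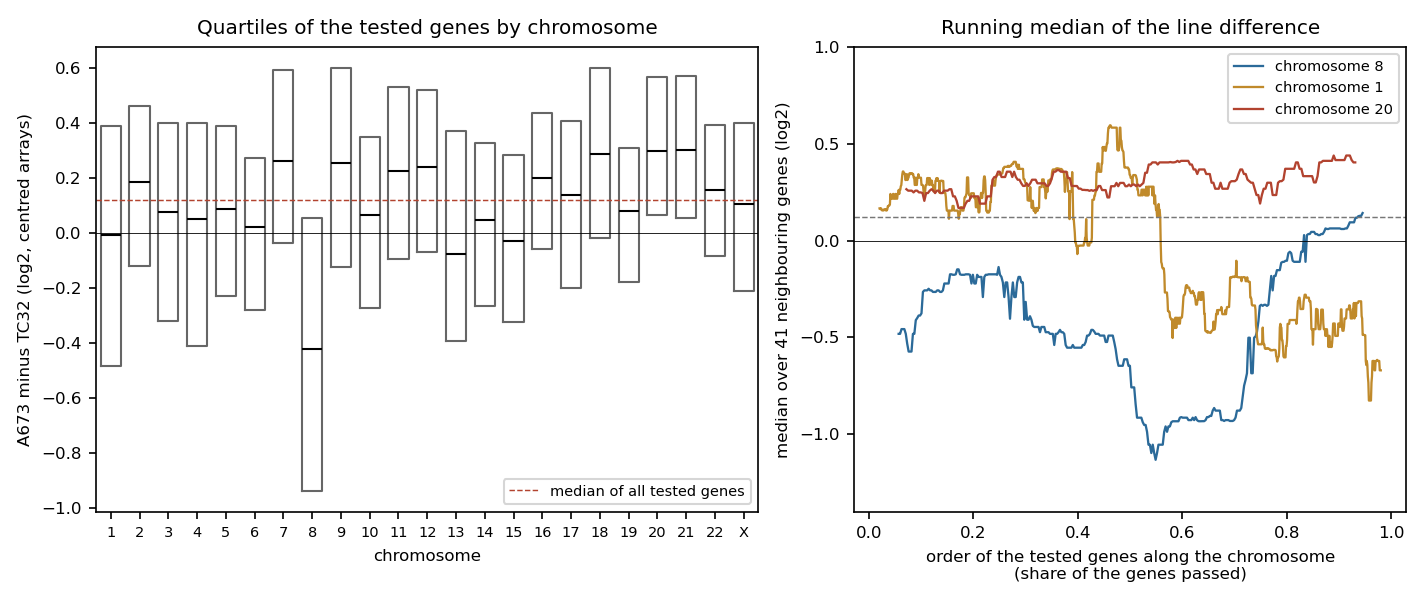
Left, quartiles of A673 minus TC32 (log2, centred arrays) over the tested genes of each chromosome, with the median of all tested genes dashed; right, the median over 41 neighbouring tested genes along chromosomes 1, 8 and 20. Chromosome 8 has the lowest median, -0.42, and as deposited it is 0.27 against 0.81 for all genes, so it lies on the A673 side of 0 but below the rest.

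The same differences were looked for in the 8 arrays treated with THZ531. Their values do not enter the DMSO means, though all 12 arrays share 1 estimate of the spread, so the DMSO calls are not wholly separate from them. Between the lines, 54.7% of tested genes differed at 100 nM and 58.5% at 500 nM. Of the 592 genes at least 2-fold higher in A673 under DMSO, 588 were called higher in A673 at 100 nM and 582 at 500 nM. Of the 652 higher in TC32, 634 and 617 were called higher in TC32. At least 2-fold again at 500 nM were 455 and 495. Called in the opposite direction at 500 nM were 1 and 3. Differences under DMSO and at the doses correlated at 0.936 and 0.900 across all tested genes, which are not independent of each other. All 17 ERK output genes higher in A673 kept that call at 500 nM, as did 11 of the 12 interferon genes higher in TC32 and all 20 matrix genes higher in A673. Of the 6 neural crest genes higher in TC32, 4 kept that call, and that list's median went from -0.51 under DMSO to -0.84 at 100 nM and 0.13 at 500 nM. The chromosome 8 median was -0.42 at 100 nM and -0.39 at 500 nM.

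For some genes the gap between the lines changed with the drug. The change of the line difference from DMSO passed the threshold for 282 genes at 100 nM (2.78%) and 1041 at 500 nM (10.3%). LIN28B went from a difference of 5.36 under DMSO to 4.50 at 100 nM and 2.82 at 500 nM, and OTX2 from 5.50 to 5.28 and 3.51. ZNF518B, a zinc finger protein higher in TC32, went from -4.58 to -1.96 and -1.30. MMP1, AKR1C3, HMGA2 and KRT18 had differences of 8.92, 6.94, 6.82 and 6.15 at 500 nM, and MGP of -7.80. FLI1 went from 1.19 to 2.88 at 100 nM (adjusted p of the change 2.32e-05) and 1.89 at 500 nM (0.0221). NKX2-2 went from -0.82 under DMSO to -0.83 and then to 0.53 at 500 nM (adjusted p of the change 4.64e-06).

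**Figure D5:**
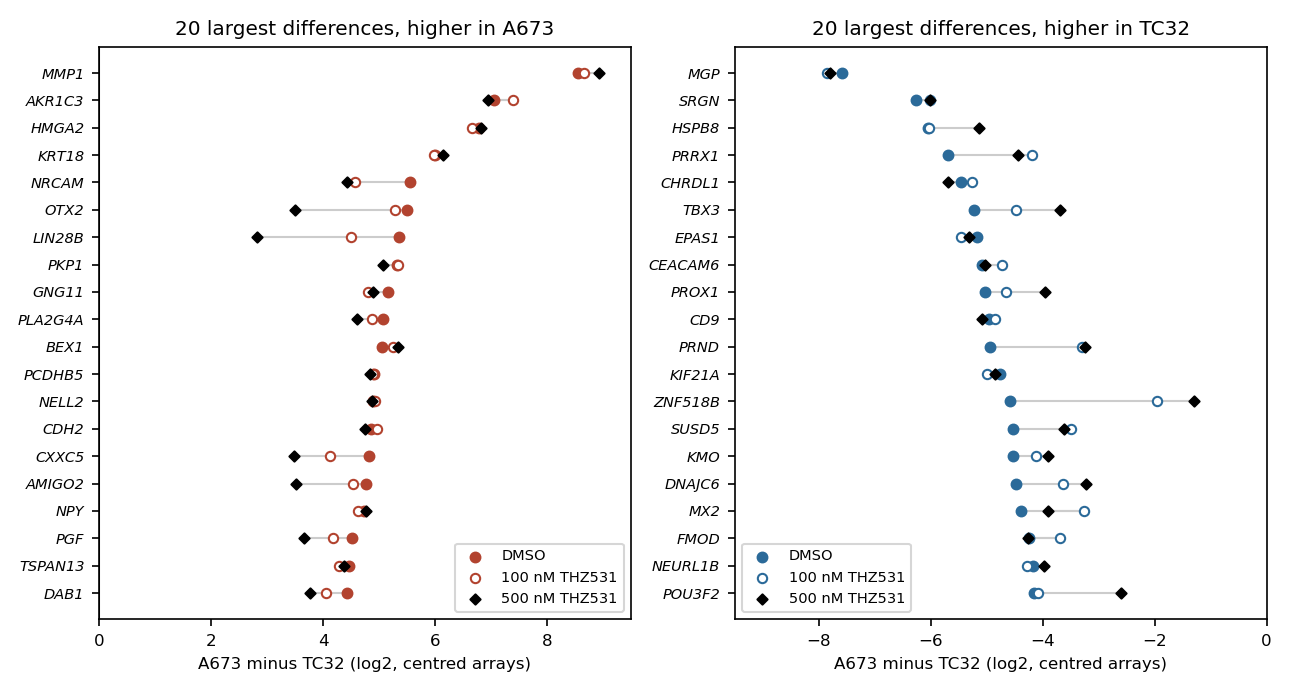
A673 minus TC32 (log2, centred arrays; x axis) for the 20 largest DMSO differences in each direction, under DMSO (filled circles), 100 nM (open circles) and 500 nM THZ531 (diamonds), each the difference of means of 2 arrays. Every gene keeps its sign; LIN28B moves from 5.36 to 2.82 and ZNF518B from -4.58 to -1.30 between DMSO and 500 nM.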

How the data were processed

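Expression was measured on arrays in 6 groups of 2: A673 and TC32 under DMSO, 100 nM or 500 nM THZ531. The authors deposited 1 log2 value per probe set and array. The submitters' processing notes name MAS5, GRCh37 and hg19, with no role given; how arrays were scaled, and whether the spike-in was used, is not given in the sources used here. Probe sets naming 1 gene (44994; 1832 named several and 2569 none) were named through the platform annotation, with symbols updated in RefSeq (16899 of 16913 genes matched). The 2829 rows with at most 2 decimals and 116 genes sharing identical values were left out, so CDKN1A, BRAF, NR0B1 and GLI1 were not analysed here. Of several sets of values, the highest mean was used (10 genes).

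Values were centred on array medians (R 4.3.3, limma 3.58.1, Python 3.11.15, pandas 2.3.3). Genes at or above the 40th percentile of the mean over the DMSO arrays were tested with lmFit and eBayes (trend), 1 mean per group over 12 arrays, two-sided, Benjamini-Hochberg adjusted; the residual SD was 0.118. The fit was tested on simulated data. The members and the 48 gene lists were chosen with earlier results of these data known. Named were the 20 largest differences each way, up to 4 list members each way past 2-fold, and a set of identity and drug genes (ABCG2 was not tested); exceptions are stated. A gene and the list built on it are not reported here. Alternatives changed scaling, filter, samples, variance trend, replicate block, probe set and arrays used. Same-numbered DMSO arrays deviated with a correlation of -0.138 across genes, which cannot settle whether the numbers pair them.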

Additional observations from a re-analysis of the deposited data

Results flagged for a closer look

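Among the 40 genes with the largest differences between the untreated lines, the gap between A673 and TC32 was tested for a change with THZ531 (limma, an interaction of line and dose, Benjamini-Hochberg over all tested genes). The change passed for 17 genes at 500 nM and 8 at 100 nM, and all of these gaps were smaller under the drug. The 40 genes were chosen for a large gap under DMSO, so a smaller gap elsewhere is not independent of the choice, and its cause was not tested. As deposited, 12 of the 17 and 5 of the 8 passed.

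Among genes higher in A673, the gap (log2) changed from DMSO to 500 nM by -2.54 for LIN28B, -1.99 for OTX2, -1.34 for CXXC5, -1.25 for AMIGO2, -1.13 for NRCAM, -0.85 for PGF and -0.66 for DAB1. At 100 nM it changed by -0.99 for NRCAM and -0.86 for LIN28B. Among genes higher in TC32, the change at 500 nM was 3.29 for ZNF518B, 1.69 for PRND, 1.56 for POU3F2, 1.55 for TBX3, 1.26 for DNAJC6, 1.25 for PRRX1, 1.08 for PROX1, 0.91 for HSPB8, 0.91 for SUSD5 and 0.62 for KMO. At 100 nM it was 2.62 for ZNF518B, 1.64 for PRND, 1.49 for PRRX1, 1.14 for MX2, 1.03 for SUSD5 and 0.85 for DNAJC6. ZNF518B had the smallest adjusted p at both doses, 1.54e-08 at 500 nM and 6.34e-07 at 100 nM.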

How the results depend on the processing

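Scaling mattered most. As deposited, 7825 genes were higher in A673 and 533 in TC32, with 3413 and 252 past 2-fold. With no filter on low values, 3689 were higher in TC32 and 1023 by 2-fold. With the filter at the 60th percentile, 359 and 334 passed 2-fold, where fewer genes were tested. Leaving out 1 array at a time, the genes higher in A673 numbered 2595 to 3523 and in TC32 1674 to 2502, and past 2-fold 477 to 667 and 546 to 822. The counts stayed within 1.5 times under the other alternatives run. Directions reversed as deposited for CD99 (0.57), CDKN2A (0.37), CDK12 (0.61), CDK13 (0.50) and SLFN11 (0.42), and after quantile normalization for CD99 (0.12); 4 of these 5 genes were within 0.30 of 0 after centring. Of 214 named genes, 196 kept direction and side of the threshold as deposited and 210 after quantile normalization. Most of them were named for a large difference after centring, so these counts are not independent of that choice and do not speak for genes with small differences. Signal near the expression minimum limits the folds of 82 named genes to lower bounds.

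With the replicate block, 3612 genes were higher in A673 and 2303 in TC32, with 592 and 652 past 2-fold as without it. A block with crossed numbers, chosen after seeing the data, gave 3369 and 2169. The residual SD was 0.114 with the block, 0.118 without it and 0.122 with crossed numbers. The correlation of -0.138 between deviations of same-numbered DMSO arrays cannot settle whether the numbers pair them.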
